A study of Homo sapiens with 40 samples.

Results

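HIF targets and glycolytic enzymes, a set of 40 genes listed by name, were followed in BT474 and BT474R at T0 and after EGF, HRG or vehicle. The members were the rows of the count table whose gene name equalled a listed name, and all 40 were found among its 44584 names. For LDHA the rows with the plain name and with an added number were summed, since the added row, LDHA_1, held 80.9% of the reads of both. BT474 is a HER2-positive breast ductal carcinoma line that responds to trastuzumab, and BT474R is clone 5 of this line, a single clone that came from growth with trastuzumab for several weeks. Every group was serum starved before T0, so the controls carried the starvation too, and the cells then got fresh starvation medium that held EGF at 50 ng/mL, HRG at 10 ng/mL or, for the vehicle, water. RNA was taken at T0 and after 1 h, 12 h or 24 h, in 2 libraries for each of the 20 groups. The labels describe both lines as breast cancer epithelial cells, and 9 of 9 markers of luminal HER2-positive epithelium had at least 10 counts in every library, while PTPRC and CD3E, which mark leukocytes, had at most 3.

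The BT474 libraries held between 19200632 and 29098915 counts and the BT474R libraries between 16794594 and 33387936. Levels are given as CPM, counts relative to the library total, scaled by TMM over all 40 libraries, with the first and the second library of a group in that order. CPM was not divided by gene length, so levels were compared between samples and not between genes. Differences are log2 fold changes with the standard error (SE) from edgeR, and a gene was called a DEG at a Benjamini-Hochberg adjusted p under 0.05 over all genes tested. All 40 members passed the filter on low counts in each line and in the fit of both lines. Shares of all genes called are those of these fits, and none is given for a count from another fit or filter. SLC2A3, CA9 and ANGPTL4 had 3 counts or fewer in both libraries of at least 3 groups, and their fold changes from the fit are not quoted here where such a group was involved. Their calls are still part of the counts of members called, such as those of CA9 and ANGPTL4 at T0, and CA9 is part of the medians over members. The study made its treatments in duplicate, and nothing states that the replicates came from separate cultures, so the p-values measure the spread between these libraries, which may be technical. In RNA from whole cultures, a change in all cells cannot be told apart from a change in the share of cells that make an RNA.

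HIF is a transcription factor of an oxygen-sensitive alpha subunit, HIF1A or EPAS1, and a constant partner, ARNT. With oxygen, prolyl hydroxylases such as EGLN3 mark the alpha subunit, VHL binds it and it is degraded, and without oxygen, or when growth factor signaling raises its synthesis, it builds up and binds a core motif, most often ACGTG, near its target genes. The known targets carry glucose into the cell, break it down to lactate, shut off pyruvate dehydrogenase, export acid, remove mitochondria, cross-link collagen and call in blood vessels. RNA levels say nothing on the HIF protein itself.

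The motif ACGTG was searched on both strands in the 250 bases before each RefSeq start, and 36 of the 40 members were in the promoter table used (RefSeq, GRCh38.p14). BNIP3L, NDRG1, SLC2A3 and VEGFA were not in it. At least 1 match was present in 23 of these 36 members (63.9%) and in 5935 of 27305 genes of the table (21.7%), where a gene with several starts counts as matched when any of its windows holds the motif. By window, 28 of 62 of the members' windows (45.2%) and 6501 of 35116 of all windows (18.5%) held it. A match is a description of these letters and was not tested for binding. Windows of 6 members with a single start are shown, since their levels follow, 4 with a match and 2, EGLN3 and CA12, without one. The match is in capitals, as ACGTG or as CACGT where it lies on the opposite strand, all sequences read 5′ to 3′ along the gene, and a window ends at the last base before the first exon that GENCODE gives for the gene.
CA9, chr9:35673678-35673927, plus strand, 250 bases: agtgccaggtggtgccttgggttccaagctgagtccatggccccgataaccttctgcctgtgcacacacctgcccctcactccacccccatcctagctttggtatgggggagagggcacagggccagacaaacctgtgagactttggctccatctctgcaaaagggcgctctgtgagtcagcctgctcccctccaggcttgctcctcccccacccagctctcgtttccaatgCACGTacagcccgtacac
PGK1, chrX:78103998-78104247, plus strand, 250 bases: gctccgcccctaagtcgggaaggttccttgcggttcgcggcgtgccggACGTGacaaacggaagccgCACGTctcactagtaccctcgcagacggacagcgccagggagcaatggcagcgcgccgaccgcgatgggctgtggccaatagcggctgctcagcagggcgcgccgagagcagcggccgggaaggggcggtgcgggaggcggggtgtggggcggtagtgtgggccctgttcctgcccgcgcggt
DDIT4, chr10:72273674-72273918, plus strand, 245 bases: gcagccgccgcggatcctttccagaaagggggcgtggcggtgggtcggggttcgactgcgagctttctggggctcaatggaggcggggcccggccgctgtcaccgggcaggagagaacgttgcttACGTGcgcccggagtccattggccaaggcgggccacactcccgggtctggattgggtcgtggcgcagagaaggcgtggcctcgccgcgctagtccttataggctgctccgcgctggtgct
BNIP3, chr10:131981968-131982173, minus strand, 206 bases: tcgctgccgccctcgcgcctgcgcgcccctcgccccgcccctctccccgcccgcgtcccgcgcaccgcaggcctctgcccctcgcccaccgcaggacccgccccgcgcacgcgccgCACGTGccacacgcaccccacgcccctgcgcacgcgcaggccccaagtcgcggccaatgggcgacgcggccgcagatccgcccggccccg
EGLN3, chr14:33951082-33951324, minus strand, 243 bases: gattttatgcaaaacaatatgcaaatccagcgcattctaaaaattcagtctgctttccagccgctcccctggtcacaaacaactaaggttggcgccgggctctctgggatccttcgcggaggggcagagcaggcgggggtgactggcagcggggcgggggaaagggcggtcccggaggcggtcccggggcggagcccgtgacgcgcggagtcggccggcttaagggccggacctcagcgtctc
CA12, chr15:63381847-63382096, minus strand, 250 bases: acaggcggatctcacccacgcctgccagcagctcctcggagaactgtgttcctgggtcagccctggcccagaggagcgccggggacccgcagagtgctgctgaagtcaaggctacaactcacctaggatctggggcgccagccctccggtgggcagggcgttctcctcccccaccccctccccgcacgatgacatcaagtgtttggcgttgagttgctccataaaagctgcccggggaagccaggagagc
In BNIP3 the capitals are 1 palindrome, in which the matches on the 2 strands overlap. The match began 18 bases before the start in CA9, 202 and 183 bases before it in PGK1 and 125 bases before it in DDIT4.

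The first comparison asked how the members differ between the starved lines at T0. In BT474R, 28 of the 40 members were higher and 2 lower, where 23.4% of all genes tested were called up and 23.4% down. The median log2 fold change of the 37 members with a mean of at least 1 CPM was 0.73, against 0.014 over all such genes. In the plot of line differences, PDK1, NDRG1, VEGFA and BNIP3 lie between 2.03 and 2.37 on the log2 scale, LOX at 5.001 and CA12 at -5.55. All 5 regulators of flux and fate of pyruvate were called up, and of the 6 enzymes from triose phosphate to pyruvate 4 were.

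**Figure D1:**
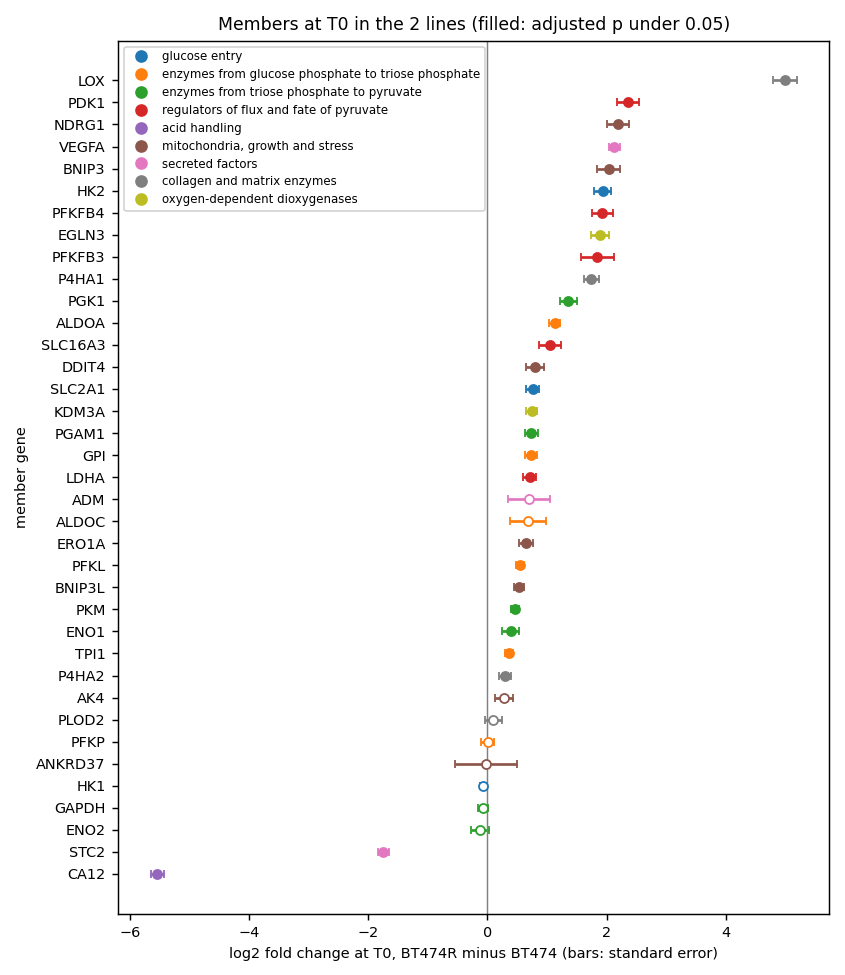
Log2 fold change at T0 of 37 members, BT474R minus BT474, with bars for the SE and colors for the roles; SLC2A3, CA9 and ANGPTL4 are left out for their low counts. Filled points passed an adjusted p under 0.05, and only STC2 and CA12 were called lower in BT474R.

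Among the genes of glucose entry, the glucose transporter SLC2A1 and the hexokinase HK2 were higher in BT474R at T0. HK2 was at 106 and 102 CPM in BT474 and at 408 and 385 CPM in BT474R, a log2 fold change of 1.93 (SE 0.15). SLC2A1 was at 81.3 and 81 CPM in BT474 and at 141 and 133 CPM in BT474R (0.76, SE 0.10). Both its BT474R libraries were over both BT474 libraries, as for 8459 of 24640 genes, while 9172 had the reverse order. HK1, the hexokinase of most tissues, was at 344 and 342 CPM in BT474 and 327 and 324 CPM in BT474R and was not called (-0.074, SE 0.05). SLC2A3 stayed at or under 10 counts in every library, so no comparison was made for this second transporter.

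Of the enzymes from glucose phosphate to triose phosphate, 4 of 6 were higher in BT474R. ALDOA, the main aldolase, was at 49.3 and 49.4 CPM in BT474 and 106 and 110.4 CPM in BT474R (1.13, SE 0.091). GPI, which turns glucose phosphate into fructose phosphate, was at 421 and 415 CPM in BT474 and 705 and 682 CPM in BT474R (0.73, SE 0.11). A further row, GPI_1, held 9.76% of the reads of both GPI rows and was not added. The phosphofructokinase PFKL was at 139 and 143 CPM in BT474 and 207 and 205 CPM in BT474R (0.55, SE 0.061), while its paralog PFKP had nearly the same level in both lines, with 117 and 115 CPM in BT474 and 116 and 116 CPM in BT474R, and was not called.

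Between triose phosphate and pyruvate, PGK1, PGAM1, PKM and ENO1 were called higher in BT474R. PGK1, which makes ATP from bisphosphoglycerate, was at 389 and 376 CPM in BT474 and 983 and 979 CPM in BT474R (1.36, SE 0.15). PGAM1, a mutase of the next step, was at 48.8 and 47 CPM in BT474 and 82.3 and 77.6 CPM in BT474R (0.74, SE 0.11). The call of ENO1 was lost when any 1 of the 4 T0 libraries was left out, with values between 0.37 and 0.41 in place of 0.39, and also with DESeq2. GAPDH (-0.077, SE 0.077) and the second enolase ENO2 (-0.13, SE 0.15) were not called.

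Of the regulators of flux and the genes at the fate of pyruvate, PDK1, PFKFB4 and PFKFB3 differed most between the lines. PDK1, a kinase that shuts off pyruvate dehydrogenase, was at 11.8 and 12.2 CPM in BT474 and at 62.1 and 61.5 CPM in BT474R (2.37, SE 0.18, a fold of 5.16). PFKFB4 was at 19.5 and 18.6 CPM in BT474 and 73.5 and 72.2 CPM in BT474R (1.93, SE 0.17). PFKFB3, which with PFKFB4 sets the level of an activator of phosphofructokinase, was at 18.7 and 17.5 CPM in BT474 and 69.7 and 61.2 CPM in BT474R (1.85, SE 0.27). For each of these 3 genes both BT474R libraries were over both BT474 libraries, an order that 8459 of 24640 genes had. LDHA, which makes lactate, was at 413 and 384 CPM in BT474 and 649 and 652 CPM in BT474R (0.71, SE 0.11). The lactate exporter SLC16A3 was at 11 and 9.97 CPM in BT474 and 20.7 and 22.6 CPM in BT474R (1.04, SE 0.19).

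The surface carbonic anhydrases went opposite ways. CA9 had 1 and 0 counts in the T0 libraries of BT474 and 145 and 177 in those of BT474R. With 1 count in BT474, the ratio of the lines was 382, with a 95% interval from 68.1 to 15142 that covers counting error only. CA12, by contrast, was at 149.6 and 152 CPM in BT474 and at 3.47 and 3.01 CPM in BT474R, a log2 fold change of -5.55 (SE 0.11). In all 20 libraries of each line, the lowest, median and highest CA12 level were 149.6, 184 and 299 CPM in BT474 and 1.65, 3.09 and 4.03 CPM in BT474R, so the lines did not overlap under any treatment.

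Of the genes of mitochondria, growth and stress, 5 of 7 were higher in BT474R at T0. BNIP3, a receptor for the removal of mitochondria, was at 18.3 and 16.1 CPM in BT474 and 71.9 and 70.01 CPM in BT474R (2.03, SE 0.20). NDRG1, a gene of growth arrest, was at 116 and 109 CPM in BT474 and 515 and 515 CPM in BT474R (2.19, SE 0.18). The related receptor BNIP3L differed less, with 96 and 88.8 CPM in BT474 and 134 and 134 CPM in BT474R (0.53, SE 0.089). DDIT4, an inhibitor of the mTOR complex, was at 62.3 and 58.3 CPM in BT474 and 104 and 106 CPM in BT474R (0.80, SE 0.15). ERO1A, an oxidase that makes disulfide bonds in secreted proteins, was at 44.4 and 42.6 CPM in BT474 and 65.4 and 71.1 CPM in BT474R (0.65, SE 0.12). AK4, a mitochondrial adenylate kinase, was not called (0.28, SE 0.15), nor was ANKRD37, which stayed under 1 CPM in both lines at T0.

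Among the secreted factors, VEGFA and STC2 differed in opposite directions. VEGFA, which directs blood vessel growth, was at 60.8 and 65.4 CPM in BT474 and at 277 and 274 CPM in BT474R (2.13, SE 0.093). STC2, the glycoprotein stanniocalcin, was at 130.1 and 135 CPM in BT474 and at 36.9 and 41.7 CPM in BT474R (-1.75, SE 0.10). The vasodilator ADM was at 2.02 and 1.94 CPM in BT474 and 3.64 and 2.87 CPM in BT474R and was not called (0.70, SE 0.36). ANGPTL4 was at 0.116 and 0 CPM in BT474 and 0.411 and 0.324 CPM in BT474R, and its call was lost without the second BT474 library or without either BT474R library.

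At T0, 3 of the 4 enzymes of collagen and both dioxygenases were called higher in BT474R. LOX, which cross-links collagen, was at 1.12 and 1.1 CPM in BT474 and at 35.6 and 35.9 CPM in BT474R, a fold of 32 (5.001, SE 0.20). P4HA1, the catalytic subunit of a collagen prolyl hydroxylase, was at 41.2 and 37.6 CPM in BT474 and 134 and 131 CPM in BT474R (1.74, SE 0.12). Its paralog P4HA2 was called at 0.29, but the call was lost without the second BT474 library (0.18) or without either BT474R library, and PLOD2, a lysyl hydroxylase, was not called, with 22.8 and 20.3 CPM in BT474 and 20.9 and 25 CPM in BT474R. EGLN3, the HIF prolyl hydroxylase that HIF itself induces, was at 58.9 and 54.6 CPM in BT474 and 206 and 213 CPM in BT474R (1.88, SE 0.15). KDM3A, a histone demethylase that needs oxygen, was at 98.4 and 91 CPM in BT474 and 162 and 155 CPM in BT474R (0.74, SE 0.091).

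In the vehicle at 24 h the lines again differed, with 33 members higher and 2 lower in BT474R, where 25.3% of all genes were called up and 23.8% down. The 2 lower members were CA12 (-6.16, SE 0.11) and STC2 (-0.96, SE 0.09). ENO2, PLOD2, AK4, PFKP and ADM, which were not called at T0, were called higher in BT474R in the vehicle at 24 h, by 1.19, 0.73, 0.87, 0.46 and 2.11. Without the second BT474R vehicle library PFKP was 0.30. ENO1 was called at 0.56 and LDHA at 0.44, and without that library they were 0.24 and 0.30 and not called. SLC2A3 had between 0 and 10 counts in any library, and its call here rests on such counts.

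The vehicle groups were then compared with T0, to ask how the members changed in starvation medium with no ligand. In BT474, 5 members rose and 1 fell after 1 h, 24 rose and 1 fell after 12 h and 29 rose and 0 fell after 24 h. Over all genes tested, 3.33% rose and 3.52% fell at 1 h, 3.12% and 3.34% at 12 h and 5.63% and 5.57% at 24 h. In BT474R, 0 members rose and 3 fell after 1 h (all genes, 1.14% and 1.10%), 0 of 40 were called after 12 h (all genes, 1.13%) and 33 rose and 0 fell after 24 h (all genes, 6.84% and 6.83%). In BT474 at 12 h PFKFB3 (0.999), PDK1 (0.80), NDRG1 (0.78) and P4HA1 (0.77) were among the 24, and STC2 was the 1 that fell (-0.22). At 12 h in BT474R, edgeR gave an unadjusted p under 0.05 for 8 members and DESeq2 called 0, while with no filter on low counts edgeR called 16, and the median over the 37 members with at least 1 CPM was 0.15.

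**Figure D2:**
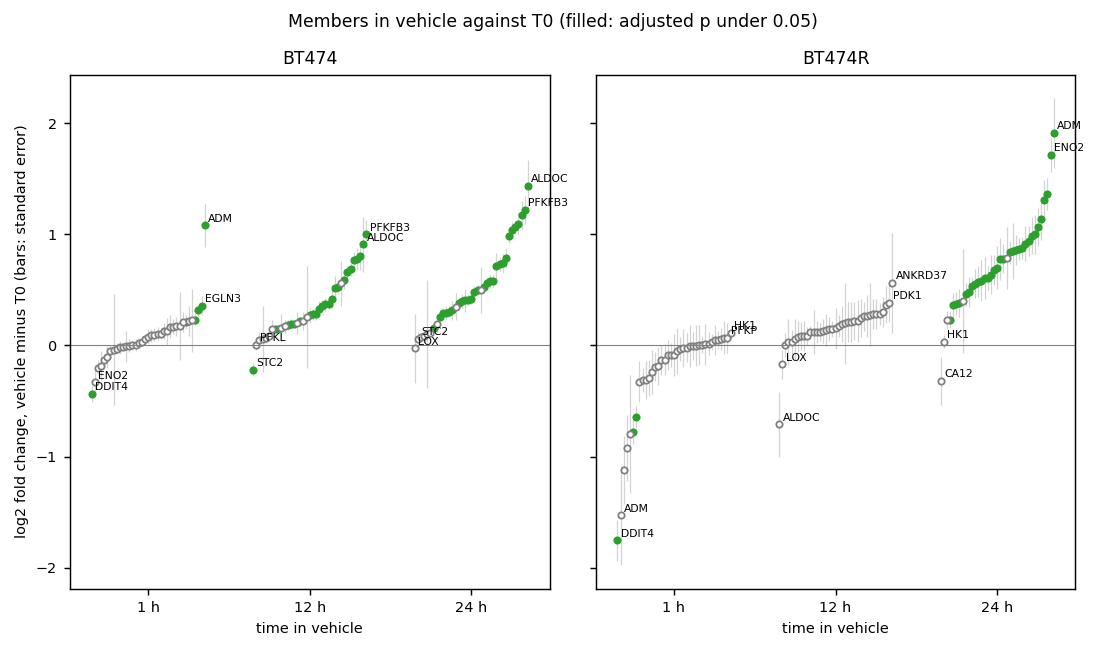
Log2 fold change of 37 members in vehicle against T0, with a block for each of the 3 times, in order of size within each time, with bars for the SE; filled points passed an adjusted p under 0.05. In BT474R all points are open at 12 h, and at 24 h 33 members were called up, CA9 included, which is not plotted, where the furthest values plotted are those of ADM (1.91) and ENO2 (1.72).

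At 24 h the median over the 37 members with at least 1 CPM was 0.48 in BT474 and 0.78 in BT474R, against -0.0047 and -0.0066 over all such genes. In BT474, PFKFB3 rose most among members over 10 CPM, from 18.7 and 17.5 CPM at T0 to 43.6 and 40.4 CPM (1.22, SE 0.12). PDK1 (1.17), NDRG1 (1.09), LDHA (1.06), P4HA1 (1.04) and VEGFA (0.98) followed. CA9 had 6 and 14 counts in the 24 h vehicle libraries of BT474, 19.5 times its 1 count at T0, with a 95% interval from 3.11 to 807 for counting error. SLC2A1 (0.16), ENO2 (0.40), CA9 and P4HA2 (0.31) lost their call with 1 library left out, SLC2A1 with any of the 4, CA9 with any but the first vehicle library, ENO2 without the first library of either group and P4HA2 without the second of either group, when it was 0.20 without the second T0 library.

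In BT474R, ADM was at 3.64 and 2.87 CPM at T0 and at 8.73 and 15.8 CPM after 24 h (1.91, SE 0.32). ENO2 was at 14.2 and 13.9 and then 42 and 50.5 CPM (1.72, SE 0.15). PLOD2 was at 20.9 and 25 and then 51 and 68.1 CPM (1.36, SE 0.14). For these 3 genes the vehicle libraries were at over 2 times every T0 library. AK4 went from 75 and 77.7 to 157 and 222 CPM (1.31, SE 0.18). NDRG1 went from 515 and 515 to 954 and 1317 CPM (1.14, SE 0.19). DDIT4 went from 104 and 106 to 181 and 258 CPM (1.06, SE 0.17), and STC2, which was lower in this line, from 36.9 and 41.7 to 67.9 and 73.4 CPM (0.84, SE 0.10). In each of these genes the second vehicle library was the higher of the pair.

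PDK1 was at 108 and 138 CPM in these libraries (0.99, SE 0.17) and PFKFB4 at 118 and 174 CPM (0.998, SE 0.18). PFKP was at 197 and 248 CPM (0.94, SE 0.13), EGLN3 at 332 and 460.5 CPM (0.92, SE 0.16) and VEGFA at 472 and 541 CPM (0.88, SE 0.10). P4HA1 was at 213 and 267 CPM (0.86, SE 0.13), BNIP3L at 215 and 274 CPM (0.87, SE 0.10) and LDHA at 1001 and 1235 CPM (0.78, SE 0.13). P4HA2 was at 31.7 and 40.4 CPM (0.61, SE 0.11) and TPI1, which interconverts the triose phosphates, at 513 and 606 CPM (0.54, SE 0.079). These calls held with any 1 library left out. The calls of a further 15 members did not, 13 of them also not without either T0 library and ALDOA not without the first. Without the second vehicle library, the values of PGK1 (1306 and 2056 CPM, 0.78), BNIP3 (91.2 and 139.6 CPM, 0.70), HK2 (519 and 715 CPM, 0.64) and ENO1 (1022 and 1574 CPM, 0.58) were 0.39, 0.34, 0.37 and 0.22. Those of ERO1A (87.8 and 132 CPM, 0.68), GPI (872 and 1194 CPM, 0.57), LOX (45.6 and 59.8 CPM, 0.55), SLC16A3 (27.7 and 38.7 CPM, 0.61) and ALDOC (3.52 and 4.88 CPM, 0.85) were then 0.34, 0.31, 0.33, 0.34 and 0.59. Those of SLC2A1, PFKL, ALDOA, GAPDH, PGAM1 and KDM3A, called between 0.23 and 0.48, were between 0.12 and 0.26. CA9 was at 17.7 and 39 CPM, up by 1.75, and kept its call with 1.07 without that library.

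The change from T0 to the vehicle at 24 h differed between the lines for 6 members by the interaction test, where 6.17% of all genes differed, and for 14 with no filter on low counts. In BT474R the change was larger for ENO2 by 1.32 (SE 0.20), for STC2 by 0.79 (SE 0.13), for EGLN3 by 0.73 (SE 0.21), for DDIT4 by 0.67 (SE 0.20), for PLOD2 by 0.63 (SE 0.18) and for ERO1A by 0.58 (SE 0.17). Those of ENO2 and STC2 held with any library left out, and the other 4 lost their call without the second BT474R vehicle library among others, with values of 0.46, 0.38, 0.40 and 0.25 for EGLN3, DDIT4, PLOD2 and ERO1A.

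After 1 h in vehicle, DDIT4 fell in both lines. It was at 30.9 and 31.3 CPM in BT474R, -1.76 (SE 0.19) from its T0 level, and at 43.7 and 45.5 CPM in BT474 (-0.44, SE 0.07). In BT474R, VEGFA (181 and 170.2 CPM, -0.65, SE 0.10) and STC2 (23.6 and 22.5 CPM, -0.77, SE 0.11) fell too, and with any library left out these 3 genes were still called, and with no filter on low counts 11 members were called. In BT474, ADM rose from 2.02 and 1.94 to 4.5 and 3.92 CPM (1.08, SE 0.19), and SLC2A1 (0.31), CA12 (0.23), HK2 (0.21) and EGLN3 (0.36) were called up. The call of HK2 was lost with any 1 of the 4 libraries left out and that of EGLN3 without the second library of either group. PFKFB3 was at 34 and 34.7 CPM in BT474R, with a value of -0.93 (SE 0.30) that was not called.

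Each ligand was set against the vehicle libraries of its time and line, and the EGF and HRG groups share those vehicle libraries. In BT474 at 12 h, EGF raised 26 members and lowered 1 (all genes, 9.62% and 6.67%), and HRG raised 32 and lowered 1 (all genes, 13.8% and 12.2%). By 24 h the numbers for EGF were 30 up and 0 down (all genes, 9.41% and 6.90%), and those for HRG 30 up and 1 down (all genes, 13.0% and 11.2%). The medians over the 37 members with at least 1 CPM at 12 h and 24 h of EGF were 0.30 and 0.36, and at those times of HRG 0.43 and 0.41, against between 0.0043 and 0.0075 over all such genes. All 6 enzymes from triose phosphate to pyruvate and all 5 regulators of flux and fate of pyruvate rose with both ligands at 12 h.

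EGLN3 rose furthest in BT474 among members over 10 CPM, from 76.5 and 75.5 CPM in vehicle to 156 and 173 CPM with EGF (1.10, SE 0.078) and 191 and 183 CPM with HRG at 12 h (1.29, SE 0.077). At 24 h it was at 64 and 65.1 CPM in vehicle, 129.6 and 171 CPM with EGF (1.20) and 138 and 162 CPM with HRG (1.19). VEGFA was at 101 and 98.3 CPM in vehicle, 153 and 163 CPM with EGF (0.65, SE 0.057) and 185 and 159 CPM with HRG (0.77, SE 0.057). At 12 h the ligand libraries of both genes were all over the vehicle libraries, as for 7112 of 24194 genes with EGF and 7417 with HRG. PFKP was at 134 and 129.8 CPM in vehicle, 187 and 198 CPM with EGF (0.53, SE 0.044) and 239 and 235 CPM with HRG (0.84, SE 0.043). ENO1 was at 759 and 748, 1001 and 1078 (0.45) and 1137 and 1134 CPM (0.58) in the same order. CA9 had 7 counts in the 2 vehicle libraries, 25 with EGF and 46 with HRG, ratios of 4.46 (95% interval 1.87 to 12.2) and 6.78 (3.04 to 17.8) for counting error only.

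Among the other members at 12 h in BT474, SLC16A3 rose by 0.51 with EGF and 0.56 with HRG, PDK1 by 0.46 and 0.62, PLOD2 by 0.47 and 0.57 and LDHA by 0.44 and 0.58. Without the second EGF library the call was lost for PDK1 (0.29), SLC16A3 (0.40), NDRG1 (0.19 in place of 0.34), PFKFB3, HK2, PGAM1, ERO1A, P4HA1 and CA9. BNIP3L was the only member called down with both ligands at 12 h (-0.19 and -0.24), although the call with EGF was lost without the first library of either group. KDM3A fell by 0.15 with HRG at 24 h, and was not called without either vehicle library or without the first HRG library (-0.073). In BT474 at 24 h, without the second EGF library PFKFB3 was 0.048 in place of 0.35 and not called, DDIT4 0.12 in place of 0.23 and not called, and NDRG1 0.36 in place of 0.58, ERO1A 0.27 in place of 0.43 and HK2 0.23 in place of 0.36. With HRG at 24 h PFKFB3 (0.32) was 0.14 without the second HRG library and not called. PFKL was not called with either ligand at either time in BT474.

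After 1 h in BT474, EGF raised 4 members and lowered 1 (all genes, 2.02% and 0.473%), and HRG raised 6 and lowered 1 (all genes, 2.71% and 0.537%). ADM was at 4.5 and 3.92 CPM in vehicle, 14.5 and 15.9 CPM with EGF (1.86, SE 0.13) and 23.8 and 23.5 CPM with HRG (2.49, SE 0.12). PFKFB3 was at 18 and 18.1, 24.4 and 28.9 (0.57, SE 0.13) and 28.5 and 31.4 CPM (0.72, SE 0.13) in the same order. VEGFA rose by 0.44 and 0.42 and KDM3A by 0.34 and 0.42. DDIT4 fell, from 43.7 and 45.5 CPM in vehicle to 29.5 and 27.7 CPM with EGF (-0.64, SE 0.074) and 23.9 and 23.9 CPM with HRG (-0.91, SE 0.08). For ADM, PFKFB3 and DDIT4 no ligand library overlapped a vehicle library. Of 24194 genes, 5843 were wholly over and 4575 wholly under the vehicle with EGF, and 6257 and 4654 with HRG. The call of PFKFB3 with EGF was lost without the second EGF library (0.43) or either vehicle library. SLC2A1 (0.17) and EGLN3 (0.32) completed the 6 with HRG, and the call of SLC2A1 was lost with any library left out and that of EGLN3 without the first HRG library or either vehicle library.

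In EGF-BT474R, 13 members rose and 0 fell at 12 h (all genes, 6.85% and 5.13%), and 11 rose and 1 fell at 24 h (all genes, 9.95% and 7.37%). With no filter on low counts, 31 and 28 members were called, and the shares of all genes given here are not those of that fit. At 1 h 0 were called (all genes, 0.457%), with an unadjusted p under 0.05 in edgeR for 3 members and 0 called by DESeq2. ENO2 was at 15.8 and 20.4 CPM in vehicle and 37.9 and 30.8 CPM with EGF at 12 h (0.92, SE 0.15), and at 42 and 50.5 CPM in vehicle and 97.4 and 110.2 CPM with EGF at 24 h (1.17, SE 0.13). Its calls at both times held with any library left out. ENO1 was at 853 and 1089 CPM in vehicle and 1817 and 1703 CPM with EGF at 12 h (0.85, SE 0.18) and at 1022 and 1574 CPM in vehicle and 2115 and 2382 CPM with EGF at 24 h (0.79, SE 0.18). EGLN3 was at 201 and 281 CPM in vehicle and 443 and 385 CPM with EGF at 12 h (0.78, SE 0.16) and at 332 and 460.5 CPM in vehicle and 564 and 622 CPM with EGF at 24 h (0.58, SE 0.16). In ENO1 and EGLN3 the EGF libraries stood over both vehicle libraries, as in 6548 of 23811 genes at 12 h and 6255 at 24 h. Both calls at both times were lost without the first vehicle library, when ENO1 was 0.70 and 0.52 and EGLN3 0.57 and 0.37.

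CA9 was at 5.58 and 10.3 CPM in vehicle and 23.5 and 19.99 CPM with EGF at 12 h (1.42, SE 0.33), and at 17.7 and 39 CPM in vehicle and 60.01 and 69.2 CPM with EGF at 24 h (1.20, SE 0.28). SLC16A3 was at 20.7 and 29.8 CPM in vehicle and 40.5 and 38.8 CPM with EGF at 12 h (0.64, SE 0.18) and at 27.7 and 38.7 CPM in vehicle and 47.1 and 53.7 CPM with EGF at 24 h (0.61, SE 0.17). PFKP was at 122 and 162 CPM in vehicle and 222 and 204 CPM with EGF at 12 h (0.58, SE 0.13). Without the first vehicle library of the time these 3 genes lost their call, with values of 1.08 and 0.73 for CA9, 0.42 and 0.39 for SLC16A3 and 0.40 for PFKP. The calls of CA9 and PFKP at 12 h were also lost without the first EGF library, that of SLC16A3 at 12 h without either, and those of SLC16A3 and EGLN3 at 24 h without the second. At 24 h ADM was at 8.73 and 15.8 CPM in vehicle and 25.3 and 28.9 CPM with EGF (1.16, SE 0.24, 0.79 and not called without the first vehicle library). ERO1A was at 87.8 and 132 CPM in vehicle and 194 and 197 CPM with EGF at 24 h (0.84, SE 0.13). STC2 was at 67.9 and 73.4 CPM in vehicle and 96 and 109 CPM with EGF at 24 h (0.54, SE 0.10). ERO1A and STC2 kept their call at 24 h with any library left out. LOX was the member called down, from 45.6 and 59.8 CPM in vehicle to 39.6 and 40.8 CPM (-0.39, SE 0.13), and was not called without either EGF library or without the second vehicle library (-0.16). At 12 h VEGFA (0.44) and STC2 (0.43) were called too, and lost their call without the first vehicle library, or without the first EGF library, when STC2 was 0.26. LDHA (0.45), SLC2A1 (0.44) and ALDOA (0.37) lost theirs without the first vehicle library, when they were 0.26, 0.29 and 0.26, and without either EGF library, and HK1 (0.18) and P4HA2 (0.34) without any of the 4. Of the 13 calls at 12 h, that of ENO2 was the only one that held in each of these 4 fits. At 24 h VEGFA (0.49) kept its call, and PFKP (0.44) and HK1 (0.20) lost it without either EGF library or the first vehicle library, when they were 0.29 and 0.16.

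In HRG-BT474R, 0 of 40 members were called at 1 h (all genes, 0.169%), 0 at 12 h (4.11%) and 0 at 24 h (2.78%). In edgeR, 1, 11 and 5 members had an unadjusted p under 0.05 at the 3 times, and DESeq2 called 0, 3 and 0. With no filter on low counts edgeR called 7, 16 and 6. With the replicate number as a block, some members were called at 12 h and 24 h, and the closing section gives their numbers. The medians over the 37 members with at least 1 CPM were 0.13, 0.15 and 0.14, and 33 of these 37 were over 0 at each time. Both HRG libraries were over both vehicle libraries for 16 of the 40 members at 12 h, where 26.5% of all genes had that order, and for 1 at 24 h, where 15.6% had it. At 12 h the share of members in that order, 16 of 40, was over that of all genes, and at 24 h it was under it.

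**Figure D3:**
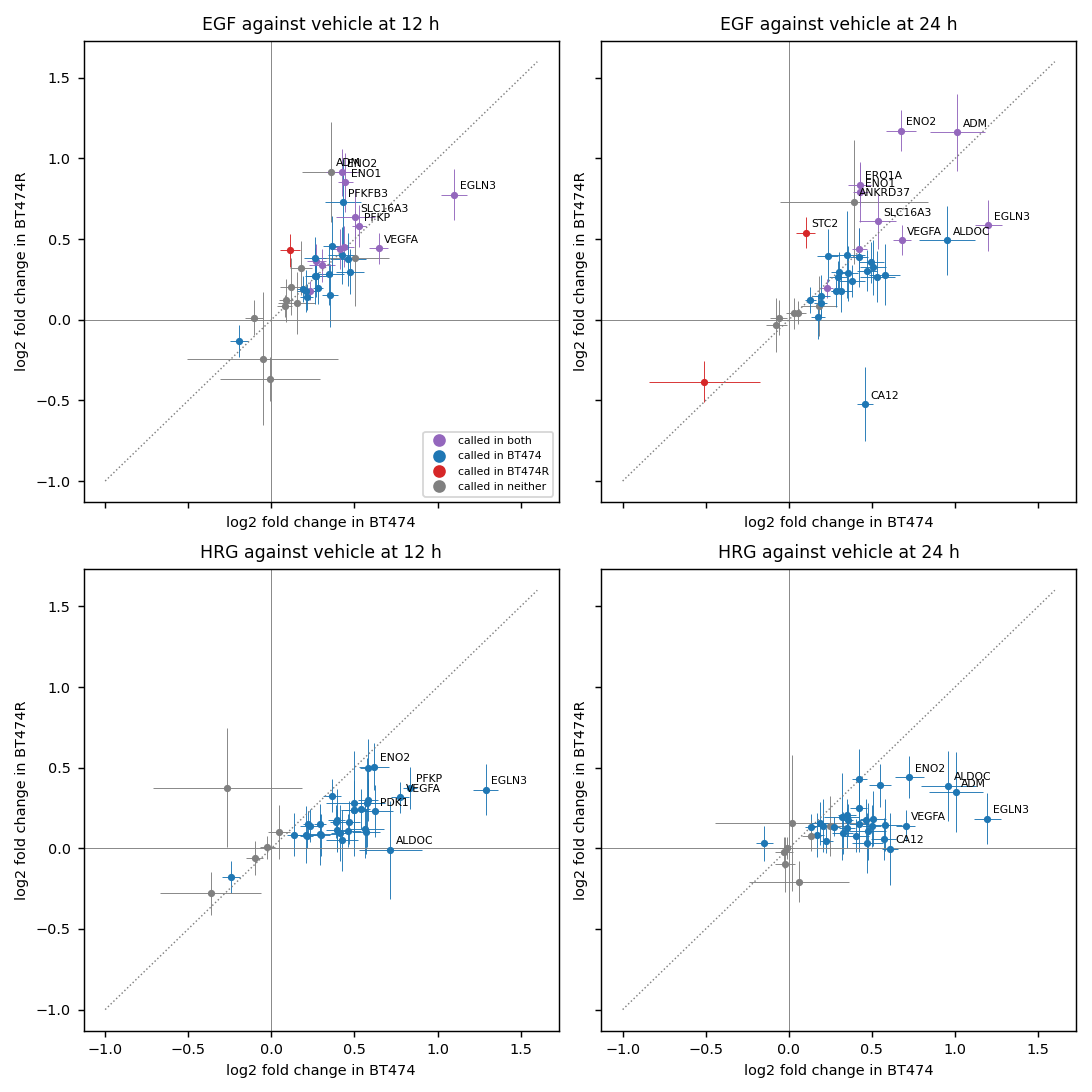
Log2 fold change against the vehicle of 37 members in BT474 (horizontal) and in BT474R (vertical) with EGF and HRG at 12 h and 24 h, with bars for the SE, a dotted line where both are equal, and colors for the lines in which the member was called. With HRG the points lie mostly under the dotted line and none is called in BT474R, and the vertical bars are longer than the horizontal ones.

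EGLN3 was at 201 and 281 CPM in vehicle and 289 and 340.5 CPM with HRG at 12 h (0.36, SE 0.16), and at 332 and 460.5 CPM in vehicle and 377 and 512 CPM with HRG at 24 h (0.18, SE 0.16). VEGFA was at 286 and 339.8 CPM in vehicle and 359 and 430.3 CPM with HRG at 12 h (0.32, SE 0.10) and at 472 and 541 CPM in vehicle and 498 and 605 CPM with HRG at 24 h (0.14, SE 0.10). ENO2 was at 15.8 and 20.4 CPM in vehicle and 22.8 and 29.6 CPM with HRG at 12 h (0.51, SE 0.15) and at 42 and 50.5 CPM in vehicle and 57 and 66.8 CPM with HRG at 24 h (0.44, SE 0.13). In these 3 genes the HRG libraries were over both vehicle libraries at 12 h, while at 24 h only ENO2 kept that order. PDK1 was at 70.1 and 91.4 CPM in vehicle and 87.9 and 105 CPM with HRG at 12 h (0.23, SE 0.16). LDHA was at 667 and 903 CPM in vehicle and 908 and 1046 CPM with HRG (0.30, SE 0.13). BNIP3 was at 59.5 and 95.1 CPM in vehicle and 72.7 and 94.2 CPM with HRG (0.086, SE 0.19). In PDK1 and BNIP3 the first HRG library was under the second vehicle library, so the groups overlapped, whereas in LDHA both HRG libraries were over both vehicle libraries.

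In BT474R the 2 libraries of a group differed over the members as a block. The second library was higher for 37 of the 37 members with at least 1 CPM in the vehicle at 24 h, with a median difference of 0.41 on the log2 scale, for 36 in the vehicle at 12 h (0.36), for 37 with HRG at 1 h (0.29) and at 12 h (0.24) and for 35 with HRG at 24 h (0.29). With EGF at 1 h it was lower for 34 of 37 (-0.24) and with EGF at 12 h for 33 (-0.094). At T0 (-0.012), in the vehicle at 1 h (0.054) and with EGF at 24 h (0.10) the pairs were closer. The second library was also the higher for 17 of 19 other HIF target genes with at least 1 CPM in the vehicle at 24 h (0.31) and for 16 of 19 at 12 h (0.16). Of 20 genes of the tricarboxylic acid cycle and pyruvate dehydrogenase it was higher for 18 (0.053) and 17 (0.051) at these times. Of all genes with at least 1 CPM it was higher for 50.9% and 58.7%. Over all genes with at least 1 CPM, the median of the same difference lay between -0.023 and 0.029 in the BT474R groups and the median size of the difference between 0.07 and 0.17. In BT474 the members' median reached 0.22 with EGF at 24 h and lay between -0.074 and 0.095 in the other groups. Because members of 1 library move together, a median over members carries the error of single libraries and the members are not replicates of each other.

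**Figure D4:**
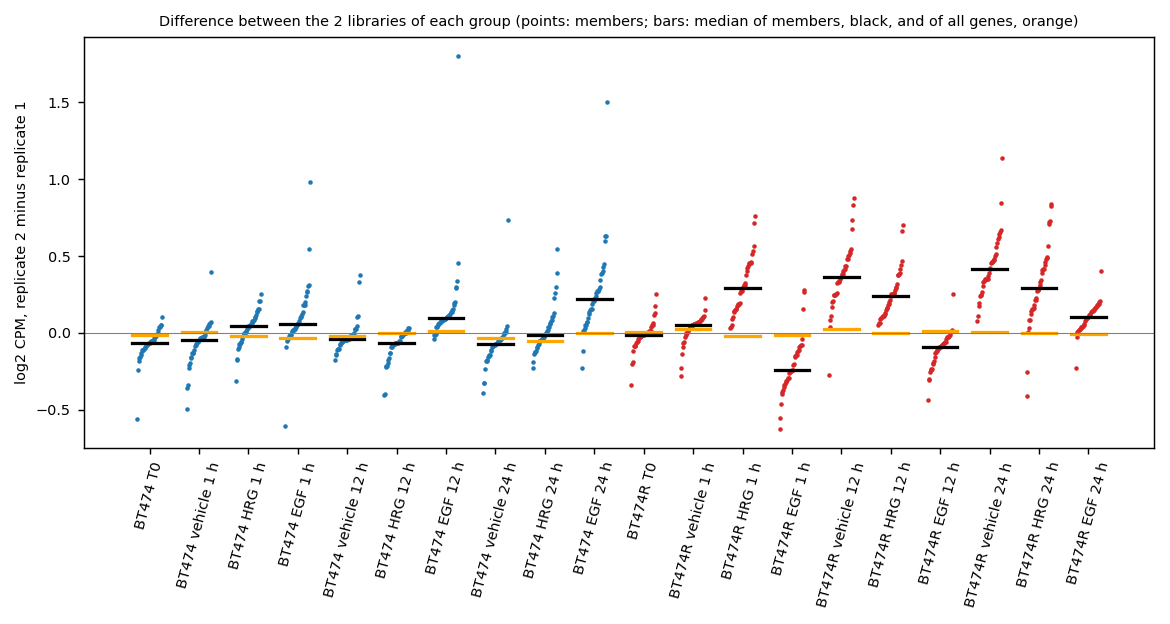
Log2 CPM of the second minus the first library of each of the 20 groups, with a point for each of 37 members, blue in BT474 and red in BT474R, and bars for the median of the members (black) and of all genes (orange). The black bars leave the orange ones most in BT474R, up to 0.41 in the vehicle at 24 h.

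The same was seen in members one by one. In the vehicle at 24 h, PGK1 was at 1306 and 2056 CPM, CA9 at 17.7 and 39 CPM and BNIP3 at 91.2 and 139.6 CPM. With HRG at 24 h, ENO1 was at 1305 and 2153 CPM, PFKFB3 at 91.4 and 163 CPM and PGK1 at 1596 and 2363 CPM. With EGF at 24 h the pairs were closer, with 2128 and 2265 CPM for PGK1, 118 and 126 CPM for BNIP3 and 138 and 159 CPM for PFKFB3. The median SE of a ligand effect over the members was between 0.059 and 0.065 in BT474 and between 0.13 and 0.14 in BT474R, while over all genes it was between 0.079 and 0.083 and between 0.092 and 0.10. The members thus had smaller errors than the typical gene in BT474 and larger ones in BT474R. Whether wells, extraction or sequencing set the 2 libraries apart was not tested.

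**Figure D5:**
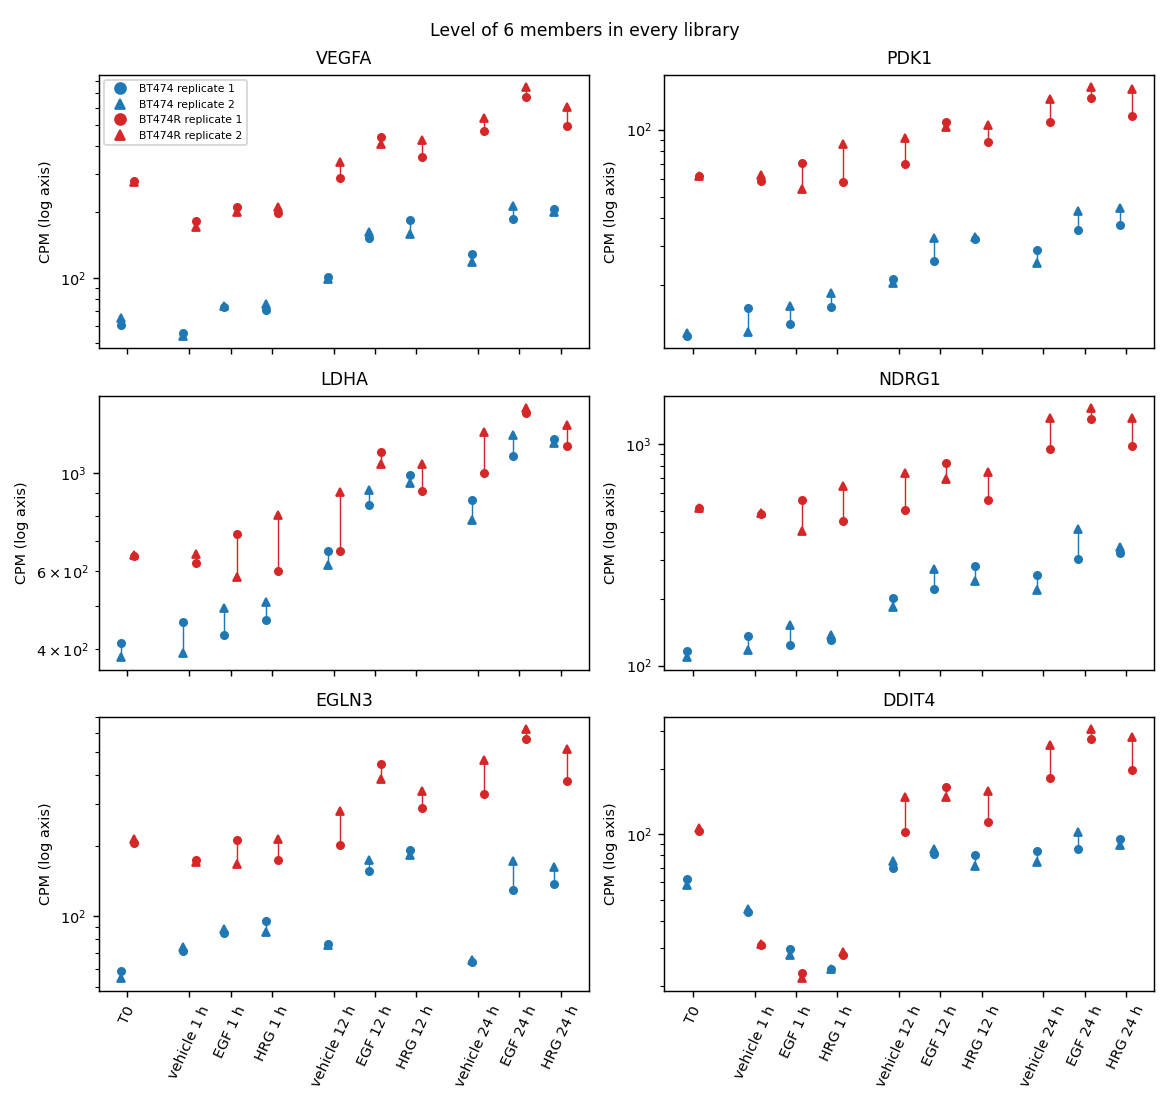
CPM on a log axis of VEGFA, PDK1, LDHA, NDRG1, EGLN3 and DDIT4 in all 40 libraries by group, with circles for the first and triangles for the second library, blue for BT474 and red for BT474R, and a line joining the pair. In BT474R the triangle stands over the circle in the vehicle and HRG groups at 12 h and 24 h, and for DDIT4 both lines fall at 1 h.

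The difference of the ligand effects between the lines was tested as an interaction. With EGF, 0 members differed at 1 h (all genes, 0.134%) and at 12 h (1.92%), with unadjusted p under 0.05 in edgeR for 2 and 2 members and 0 calls by DESeq2 at both times, and 2 differed at 24 h (3.94%). With HRG, 1 differed at 1 h (0.552%), 2 at 12 h (3.38%) and 2 at 24 h (3.22%). With no filter on low counts, 15 and 12 members differed at 12 h and 24 h of HRG, and in a fit of only the libraries compared 10 and 0. EGLN3 responded less to HRG in BT474R, with a difference of -0.92 (SE 0.20) at 12 h and -1.05 (SE 0.20) at 24 h. For VEGFA the difference was -0.45 (SE 0.12) at 12 h and -0.60 (SE 0.12) at 24 h. At 24 h both differences held with any of the 8 libraries left out, and at 12 h that of EGLN3 was lost without the second BT474R vehicle library (-0.66) and that of VEGFA without any 1 of 5 libraries, with -0.32 without the second BT474R vehicle library. Over the 37 members with at least 1 CPM the difference of the HRG effect at 24 h was under 0 for 36, with a median of -0.26, against -0.031 over all genes, and 2 of the 36 were called. These members share 8 libraries.

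ADM differed at 1 h of HRG by -2.38 (SE 0.51). It rose in BT474 at that time, and was at 1.24 and 1.01 CPM in vehicle and 1.07 and 1.35 CPM with HRG in BT474R, and the call was lost without the first HRG library of BT474R, either vehicle library of BT474R or the second vehicle library of BT474. With EGF at 24 h, CA12 differed by -0.99 (SE 0.22). It was at 2.03 and 3.21 CPM in vehicle and 1.95 and 1.65 CPM with EGF in BT474R, and rose from 186 and 182 to 275 and 235 CPM in BT474 (0.46), and without the second BT474R vehicle library, when it was -0.64, or the second BT474R EGF library the difference was not called. STC2 responded more in BT474R, by 0.43 (SE 0.12), a call lost without any 1 of 5 of the 8 libraries, with 0.26 without the first BT474 vehicle library.

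HRG was also compared directly with EGF. In BT474, 2 members were higher with HRG at 12 h (all genes, 2.21%), PFKP by 0.31 (SE 0.043) and GAPDH by 0.11 (SE 0.03), of which GAPDH lost its call with any library left out, and 0 were called at 24 h (0.652%), with an unadjusted p under 0.05 in edgeR for 2 and 0 calls by DESeq2. In BT474R, 0 were called at 12 h (1.42%), with an unadjusted p under 0.05 in edgeR for 6 and 0 calls by DESeq2, and 5 were lower with HRG at 24 h (5.18%). These 5 became 18 with no filter on low counts and 0 in a fit of only the libraries compared. The 5 were ENO2, at 97.4 and 110.2 CPM with EGF and 57 and 66.8 CPM with HRG (-0.73, SE 0.13), ADM, at 25.3 and 28.9 and 11.5 and 19 CPM (-0.81, SE 0.24), STC2 (-0.46, SE 0.10), ERO1A (-0.45, SE 0.13) and VEGFA (-0.35, SE 0.10). ENO2 kept its call with any library left out, STC2 lost it without the second EGF library, and ADM, ERO1A and VEGFA lost it without either EGF library or the first HRG library, when they were -0.49, -0.28 and -0.21.

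The HIF subunits and their regulators were followed as genes outside the set. HIF1A was at 261 and 248 CPM in BT474R at T0, 268 and 278 CPM after 1 h of vehicle, 259 and 275 CPM after 12 h and 219.7 and 218 CPM after 24 h. With EGF it was at 297 and 279, 343 and 356 and 249 and 241 CPM at the 3 times, and with HRG at 273 and 287, 308 and 312 and 228 and 237 CPM. Its pairs of libraries were close, and it rose in BT474R with EGF at 12 h (0.38, SE 0.049) and 24 h (0.17, SE 0.049) and with HRG at 12 h (0.20, SE 0.049), while it fell in the vehicle at 24 h (-0.22, SE 0.05). EPAS1, the second alpha subunit, was higher in BT474R at T0 (1.94, SE 0.08) and rose with HRG in both lines at 12 h, by 1.09 in BT474 and 0.48 in BT474R. VHL was lower in BT474R at T0 (-0.45, SE 0.055) and EGLN1, the main HIF prolyl hydroxylase, higher (1.58, SE 0.12). Of the 11 genes of this list that were tested, 6 were higher and 2 lower in BT474R at T0 (all genes, 23.4% and 23.4%).

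Of 20 other HIF targets, 13 were higher and 3 lower in BT474R at T0 (all genes, 23.4% and 23.4%). In the vehicle at 24 h, 10 rose and 0 fell in BT474 (all genes, 5.63% and 5.57%). In BT474R, 15 rose and 0 fell at that time (all genes, 6.84% and 6.83%). At 12 h in BT474, EGF raised 1 and lowered 4 (all genes, 9.62% and 6.67%), and HRG raised 3 and lowered 8 (all genes, 13.8% and 12.2%). At 12 h in BT474R, EGF raised 3 and lowered 2 (all genes, 6.85% and 5.13%), and HRG raised 1 and lowered 1 (all genes, 4.11% in either direction). The repressor MXI1 fell with EGF and HRG at 12 h in BT474 (-0.45 and -0.62), and the circadian repressor BHLHE40 rose by 0.995 and 1.05. At T0, TMEM45A (3.47) and BHLHE40 (2.62) were higher in BT474R, and PPP1R3C (-2.97), which brings a phosphatase to glycogen, was lower.

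Of 19 other genes of glycolysis and pyruvate that were tested, 5 rose and 5 fell in BT474 at 12 h with each ligand. Over all genes, 9.62% rose and 6.67% fell with EGF, and 13.8% and 12.2% with HRG. PDK4, a kinase of pyruvate dehydrogenase like PDK1, was raised by both ligands in both lines, with 1.30 (SE 0.21) for EGF and 1.15 (SE 0.20) for HRG in BT474 and 1.24 (SE 0.14) and 0.98 (SE 0.14) in BT474R, while PDK2 fell in BT474 (-0.53 and -0.89). The lactate transporter SLC16A1 rose by 0.87 and 1.09 in BT474 and by 0.93 with EGF in BT474R. At T0 it was lower in BT474R (-1.73, SE 0.35), at low means of 0.58 CPM there and 1.81 CPM in BT474. LDHB, the other lactate dehydrogenase, was lower too (-1.73, SE 0.072). PDK4 was higher in BT474R at T0 (1.27, SE 0.20), so the list did not go 1 way between the lines. Of 20 genes of the tricarboxylic acid cycle and pyruvate dehydrogenase, EGF raised 8 and lowered 1 at 12 h in BT474 (all genes, 9.62% and 6.67%). HRG raised 8 and lowered 3 there (all genes, 13.8% and 12.2%). IDH3A, a subunit of isocitrate dehydrogenase, rose in both lines, by 0.43 and 0.62 in BT474 and by 0.38 and 0.30 in BT474R. In the vehicle at 24 h, 0 rose and 2 fell in BT474 (all genes, 5.63% and 5.57%). In BT474R, 0 rose and 4 fell (all genes, 6.84% and 6.83%), with IDH3A among the 4 (-0.46).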

How the data were processed

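RNA-seq of 40 libraries, 2 for each of 20 groups, was analysed from the counts per gene that the authors deposited. The authors trimmed the reads with Trim Galore 0.6.6, checked them with FastQC and MultiQC, aligned them to GRCh38.p13 and counted them with featureCounts. The annotation release, the use of strand and the treatment of reads with several matches are not given in the sources used here. The table holds 5078 names with an added number, with 2.96% of the counts. LDHA was summed over its rows, and GPI was not.

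All genes were fitted with edgeR 4.0.16 (quasi-likelihood test, TMM, limma 3.58.1, R 4.3.3), in 1 fit for each line over its 20 libraries for effects within a line and in 1 fit of all 40 for differences between lines, after keeping genes with at least 1 count in 50% of the libraries. Adjusted p-values are Benjamini-Hochberg over all genes tested, with a threshold of 0.05 and 31 comparisons in all. Fits without a library kept the dispersion trend of the full fit. Alternatives were DESeq2 1.42.0, DESeq2 size factors, other filters, other sets of libraries, copy rows and the replicate block. The scripts were tested on simulated data. CPM in the text are TMM-scaled over all 40 libraries, and intervals of count ratios are exact 95% intervals for counting error.

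The members and the lists were chosen with earlier results of these data known. Values by library in BT474R were chosen for members called with a log2 fold change of at least 0.5 and groups that do not overlap, and for HIF1A. They are also given for some members outside this rule, such as those followed with HRG, where none was called. Further members are named by role. Of genes outside the set, those of the HIF list and up to 3 a direction of each other list with the largest called change at 12 h or 24 h could be named. Lists outside the set were those of HIF subunits and regulators, other HIF targets, other glycolysis and pyruvate genes, and the tricarboxylic acid cycle. Markers of fibroblasts summed to between 74.8 and 112 CPM in BT474 and between 163 and 283 CPM in BT474R, with 1 of 6 over 10 counts in every library, those of endothelium to between 9.71 and 25.9 CPM and those of basal or mesenchymal cells to between 29.1 and 94.8 CPM. Their part in the results was not tested, and the sum of the leukocyte markers is not reported here. Promoter windows are from RefSeq (GRCh38.p14).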

Additional observations from a re-analysis of the deposited data

Results flagged for a closer look

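For 9 members an effect of a ligand or of the vehicle differed between BT474R and BT474 by the interaction test of edgeR, as log2 differences of BT474R minus BT474. The EGF effect at 24 h differed by 0.43 for STC2 and by -0.99 for CA12 (all genes, 3.94%). The HRG effect differed by -2.38 for ADM at 1 h (all genes, 0.552%). It differed by -0.45 for VEGFA and -0.92 for EGLN3 at 12 h (all genes, 3.38%), and by -0.60 for VEGFA and -1.05 for EGLN3 at 24 h (all genes, 3.22%). The change from T0 to the vehicle at 24 h differed by 0.63 for PLOD2, 0.79 for STC2, 0.67 for DDIT4, 1.32 for ENO2, 0.73 for EGLN3 and 0.58 for ERO1A (all genes, 6.17%). EGLN3 and VEGFA at 24 h of HRG and ENO2 and STC2 in the vehicle kept their call with any 1 of their 8 libraries left out, and the other 9 values did not. Groups of 2 libraries are too small for a test of single libraries that stand apart.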

How the results depend on the processing

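Of 339 member values called over all comparisons, 258 kept their call under every alternative other than leaving out a library, and none of the 339 changed sign. The values that lost their call numbered 64 of 261 in 1 fit of both lines, 20 of 337 with DESeq2, 12 of 339 in fits of only the libraries compared, 5 of 338 with edgeR's filterByExpr, 2 of 339 with copy rows summed for all genes, 2 with LDHA from its plain row alone and 1 each with DESeq2 size factors and with no filter, and 0 of 339 with either replicate block. With a library left out, 98 lost their call and 55 moved by over 1.5 times. The number of members called follows with the comparison and its reported number in parentheses, and the cause of these moves was not tested. The share of all genes called under the same setting is not given. These numbers therefore cannot be set against the shares of all genes in the results. In fits of only the libraries compared, it became 3 (EGF at 1 h in BT474, 5), 12 (vehicle against T0 at 1 h in BT474, 6), 9 (HRG over EGF at 12 h in BT474, 2), 2 (EGF at 1 h in BT474R, 0), 33 (EGF at 12 h in BT474R, 13), 1 (HRG at 1 h in BT474R, 0), 14 (vehicle against T0 at 1 h in BT474R, 3), 19 (vehicle against T0 at 12 h in BT474R, 0), 0 (HRG over EGF at 24 h in BT474R, 5), 2 (EGF effect at 1 h, difference of the lines, 0), 5 (EGF effect at 12 h, difference of the lines, 0), 2 (HRG effect at 1 h, difference of the lines, 1), 10 (HRG effect at 12 h, difference of the lines, 2), 0 (HRG effect at 24 h, difference of the lines, 2) and 10 (vehicle drift at 24 h, difference of the lines, 6). In 1 fit of both lines, it became 16 (EGF at 12 h in BT474, 27), 4 (HRG at 1 h in BT474, 7), 2 (vehicle against T0 at 1 h in BT474, 6), 10 (vehicle against T0 at 12 h in BT474, 25), 0 (HRG over EGF at 12 h in BT474, 2), 20 (EGF at 12 h in BT474R, 13), 6 (HRG at 12 h in BT474R, 0), 2 (HRG at 24 h in BT474R, 0) and 7 (vehicle against T0 at 1 h in BT474R, 3). With a replicate block within each time point, it became 11 (HRG at 1 h in BT474, 7), 7 (HRG over EGF at 12 h in BT474, 2), 1 (HRG over EGF at 24 h in BT474, 0), 22 (EGF at 12 h in BT474R, 13), 19 (EGF at 24 h in BT474R, 12), 6 (HRG at 12 h in BT474R, 0), 4 (HRG at 24 h in BT474R, 0), 6 (vehicle against T0 at 1 h in BT474R, 3), 1 (HRG over EGF at 12 h in BT474R, 0), 8 (HRG over EGF at 24 h in BT474R, 5) and 2 (HRG effect at 1 h, difference of the lines, 1). With no filter on low counts, it became 10 (vehicle against T0 at 1 h in BT474, 6), 8 (HRG over EGF at 12 h in BT474, 2), 1 (HRG over EGF at 24 h in BT474, 0), 3 (EGF at 1 h in BT474R, 0), 31 (EGF at 12 h in BT474R, 13), 28 (EGF at 24 h in BT474R, 12), 7 (HRG at 1 h in BT474R, 0), 16 (HRG at 12 h in BT474R, 0), 6 (HRG at 24 h in BT474R, 0), 11 (vehicle against T0 at 1 h in BT474R, 3), 16 (vehicle against T0 at 12 h in BT474R, 0), 12 (HRG over EGF at 12 h in BT474R, 0), 18 (HRG over EGF at 24 h in BT474R, 5), 2 (EGF effect at 1 h, difference of the lines, 0), 4 (EGF effect at 12 h, difference of the lines, 0), 7 (EGF effect at 24 h, difference of the lines, 2), 2 (HRG effect at 1 h, difference of the lines, 1), 15 (HRG effect at 12 h, difference of the lines, 2), 12 (HRG effect at 24 h, difference of the lines, 2) and 14 (vehicle drift at 24 h, difference of the lines, 6). With copy rows summed for all genes, it became 1 (HRG over EGF at 12 h in BT474, 2). With DESeq2, it became 3 (HRG at 12 h in BT474R, 0), 5 (vehicle against T0 at 1 h in BT474R, 3) and 3 (HRG over EGF at 24 h in BT474R, 5). With DESeq2 size factors in edgeR, it became 1 (HRG at 12 h in BT474R, 0). With the replicate number as a replicate block, it became 3 (HRG at 12 h in BT474R, 0), 1 (HRG at 24 h in BT474R, 0), 6 (vehicle against T0 at 1 h in BT474R, 3) and 1 (HRG over EGF at 12 h in BT474R, 0). With each library left out in turn, the lowest and highest numbers were 1 to 1 (HRG over EGF at 12 h in BT474, 2), 0 to 3 (HRG over EGF at 24 h in BT474, 0), 2 to 14 (EGF at 12 h in BT474R, 13), 6 to 23 (EGF at 24 h in BT474R, 12), 0 to 3 (HRG at 12 h in BT474R, 0), 0 to 7 (HRG at 24 h in BT474R, 0), 18 to 35 (vehicle against T0 at 24 h in BT474R, 33), 1 to 12 (HRG over EGF at 24 h in BT474R, 5), 0 to 4 (EGF effect at 24 h, difference of the lines, 2), 0 to 1 (HRG effect at 1 h, difference of the lines, 1), 0 to 3 (HRG effect at 12 h, difference of the lines, 2), 2 to 7 (HRG effect at 24 h, difference of the lines, 2) and 2 to 11 (vehicle drift at 24 h, difference of the lines, 6). Of the values not called, these changed sign in the range with 1 library left out: BNIP3 (HRG at 12 h in BT474R) from -0.19 to 0.46, VEGFA (HRG at 24 h in BT474R) from -0.014 to 0.28, EGLN3 (HRG at 24 h in BT474R) from -0.061 to 0.46. Replicate numbers were shared between groups, but with 2 pairs a comparison the deviations of same-numbered libraries correlated between -0.095 and 0.38 over all genes with at least 1 CPM. The highest, 0.38, was that of HRG against vehicle at 24 h in BT474R. The numbers were not taken to pair the samples in any comparison, and pairing over the members alone was not tested. In BT474R the second library was higher for 36 (vehicle), 37 (HRG) and 4 (EGF) of 37 members at 12 h, and for 37, 35 and 35 at 24 h. Depth limits the values of SLC2A3, CA9 and ANGPTL4, where a floor of 3 counts was up to 0.156 CPM in BT474 and 0.179 CPM in BT474R.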
